A study of Mus musculus with 8 samples.

Results

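The glucocorticoid-response genes examined here are 8 named genes, *Nr3c1*, *Fkbp5*, *Tsc22d3*, *Per1*, *Sgk1*, *Zbtb16*, *Errfi1* and *Hsd11b1*, listed by name, with earlier results of these data known. No measured value enters the rule that picks the probes. Every array probe annotated to one of these symbols was taken. Of the 8 genes, 7 had a probe, with 12 probes in all among the 25697 probes and 16593 gene symbols of the array. *Hsd11b1* had 4 probes, *Tsc22d3* and *Per1* had 2 each, and the others had 1. No probe was annotated to *Zbtb16*, a zinc-finger transcription factor gene that responds to steroids, so it has no value here.

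The samples were whole lungs of mouse embryos at embryonic day 18.5 (E18.5), from a line backcrossed to C57BL/6 mice. They were measured on 8 Illumina MouseRef-8 v2 arrays in 4 groups of 2. The groups were Snx5+/+ non-air, Snx5-/- non-air, Snx5+/+ air and Snx5-/- air lungs. Snx5-/- embryos carry a gene-trap insertion in the sorting nexin gene *Snx5* in every cell, made from a single trapped embryonic stem cell line. Embryos of the study's air-breathing test were delivered by caesarean section and exposed to room air, and the labels of the array samples say air or non-air without giving a duration. No group received a glucocorticoid, and hormone levels are not among the labels. The methods call the replicates biological, and the labels do not say whether they came from separate litters, so the p-values measure the spread between these arrays only.

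Glucocorticoids enter cells and bind the glucocorticoid receptor, the product of *Nr3c1*, which is held ready in the cytoplasm by heat shock proteins and their co-chaperones. The bound receptor moves to the nucleus, where a pair of receptor molecules binds inverted repeats of a short half-site and changes transcription of nearby genes. Late in gestation this hormone drives maturation of the fetal lung, including thinning of its walls, surfactant production and clearance of lung fluid, and mice without the receptor die at birth with immature lungs.

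Values are log2 intensities, quantile normalized, with a median of 8.05 on every array, and each array detected 12209 to 12685 probes (47.5% to 49.4%). Both tables of the series name the same genotypes but conflict on air. The intensity columns of the second table matched the log2 columns of the opposite air state (rank correlations from 0.99975 upwards, where no other pairing of columns passed 0.972), while its detection p-values followed the labels of the log2 table. Air and non-air are used here as the log2 table labels them, and under the other labels every air difference changes sign and the non-air and air genotype comparisons change places, while the genotype difference averaged over both states stays nearly the same. *Snx5* itself was dim. Its probe ILMN_2706101 lay at 7.84 to 8.42 on the Snx5+/+ and at 7.10 to 7.29 on the Snx5-/- arrays and was above background on 1 of the 8, and its other probe on none. Both Snx5-/- air arrays expressed the Y-linked *Eif2s3y* (11.81 and 11.73, against 7.13 to 7.40 on the other 6), and their *Xist* was not above background. Sex therefore cannot be told apart from the Snx5-/- air group. Under the log2 labels the comparison of genotypes without air and that of air in Snx5+/+ lungs do not use this group. Under the other labels these arrays are Snx5-/- non-air lungs, and the comparison of genotypes without air uses them.

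Sequence around the annotated starts was examined for the receptor's half-site, since it is the element through which a direct target would be read. The RefSeq promoter table (GRCm38.p6) held 15 windows for 6 of the genes, each from 250 bases before to 50 after a start, and none for *Nr3c1* or *Zbtb16* was used. The half-site AGAACA, searched on both strands (TGTTCT is its reverse complement), lay in 4 of the 15 windows and in 19% of all 32851 windows. The full palindromic element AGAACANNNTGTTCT lay in 1 of the 15 windows, at *Sgk1*, and in 3 windows of the whole table (0.00913%). Below are the *Sgk1* stretch with the full element, a second *Sgk1* half-site and the one *Tsc22d3* half-site, 30 bases each from 5′ to 3′, with the half-sites in capitals.
Sgk1, full element: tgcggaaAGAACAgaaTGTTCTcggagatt
Sgk1, half-site: aaagtgggactcAGAACAgaaaggcaatag
Tsc22d3, half-site: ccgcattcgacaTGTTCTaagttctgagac
The first stretch is chr10:21993694-21993723 on the plus strand. Its element begins at base -189 relative to a start of *Sgk1*, inside the gene's annotated span of chr10:21882184-21999903. The second is chr10:21992198-21992227, also on the plus strand and within that span. The third is chrX:140600690-140600719 on the minus strand, just beyond the 5′ end of *Tsc22d3* (chrX:140539528-140600522). The windows of *Fkbp5*, *Per1*, *Errfi1* and *Hsd11b1* held neither motif in these letters. A match is a description of the letters only, since binding was not measured.

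None of the 7 genes passed the call rule in any of the 7 comparisons made, which were genotype in each air state and over both, air in each genotype and over both, and the interaction of genotype and air. A gene was called when limma gave a probe of it an adjusted p below 0.05 (Benjamini-Hochberg, over all tested probes) and its log2 fold change exceeded 0.3531 in size. By this rule 0.703% of all tested genes were called between genotypes in the non-air state, 2.69% in the air state and 2.7% on average. For air the shares were 0.912% in Snx5+/+, 0.764% in Snx5-/- and 1.4% averaged, and for the interaction 0.519%. A count of 0 of 7 is close to these shares. At an unadjusted p under 0.05 the counts were 2 of 7 genes without air (16.1% of all genes), 1 with air (17.5%) and 2 on average (18%). They were 1 for air in Snx5+/+ (20.4%), 2 in Snx5-/- (11.8%), 1 on average (16.2%) and 1 for the interaction (14.6%). These shares of the set are too near the background, at 7 genes, to be read as a result about the set.

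The intervals bound how far the probe signals could have moved, each probe taken singly. In each of the 7 comparisons, all 12 probes had 95% intervals of the log2 fold change that lay inside -1 and 1. A doubling or halving of the signal thus lay outside every interval. For *Nr3c1* and the dimmer *Tsc22d3* probe, whose signal was near background, this need not hold for the RNA. Smaller shifts remained possible, since only 5 of the 12 intervals without air and 6 with air lay wholly within the fold cutoff. In the averaged genotype comparison it was 10 of 12, and for the interaction 0. Over the 8 arrays the probes spanned 0.21 to 0.69 log2 units from lowest to highest, with a median span of 0.36 against 0.40 over all tested probes. With 2 against 2 arrays an exact two-sided permutation test of a single gene could not go below p = 0.333, so none is given.

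**Figure D1:**
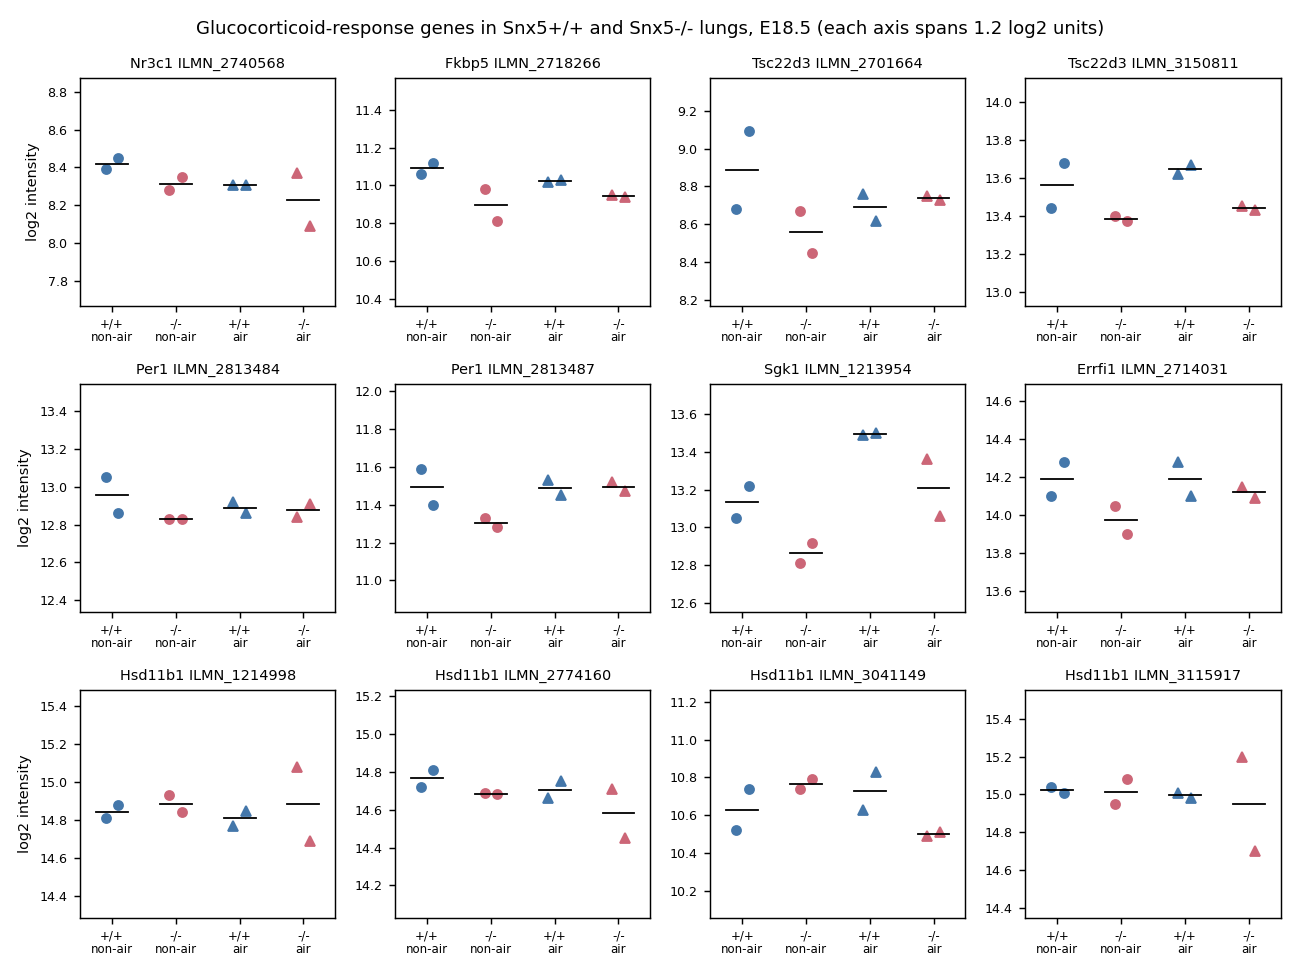
Log2 intensity (y axis) of the 12 probes on each of the 8 arrays, by genotype and air label, with circles for non-air, triangles for air, blue for Snx5+/+ and red for Snx5-/- lungs; the bar is the mean of 2 arrays, and each axis spans 1.2 log2 units. *Sgk1* has the Snx5-/- arrays below the Snx5+/+ arrays in both states and the air arrays above the non-air arrays of the same genotype.

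*Nr3c1*, the receptor gene, lay close to background and was detected on 7 of 8 arrays. Its log2 intensities were 8.39 and 8.45 in Snx5+/+ non-air, 8.28 and 8.35 in Snx5-/- non-air, 8.31 and 8.31 in Snx5+/+ air, and 8.37 and 8.09 in Snx5-/- air lungs. The Snx5-/- pair lay below the Snx5+/+ pair without air and straddled it with air. The genotype difference was -0.11 log2 (SE 0.11, 95% interval -0.35 to 0.14) without air and -0.07 (-0.32 to 0.17) with air, with adjusted p of 0.719 and 0.807 (limma). Air shifted it by -0.11 (-0.36 to 0.13) in Snx5+/+ and -0.08 (-0.33 to 0.16) in Snx5-/- lungs. In bulk tissue, fewer cells of a type and less RNA per cell cannot be told apart for this or any other gene here.

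*Hsd11b1* encodes the enzyme that regenerates active glucocorticoid from its inert form inside cells, a known source of the hormone in late fetal lung. It was bright, with its probe ILMN_3115917 at 15.04 and 15.01 in Snx5+/+ non-air, 14.95 and 15.08 in Snx5-/- non-air, 15.01 and 14.98 in Snx5+/+ air, and 15.20 and 14.70 in Snx5-/- air lungs. The Snx5-/- air pair was the widest of the 4 and enclosed all the other arrays. The difference between genotypes was -0.01 (-0.33 to 0.30) without air and -0.04 (-0.36 to 0.27) with air. Of the other *Hsd11b1* probes, ILMN_1214998 and ILMN_2774160 lay between 14.45 and 15.08, and none of their differences in any comparison exceeded 0.12 in size. The dimmest probe, ILMN_3041149, departed from them. It read 10.52 and 10.74 in Snx5+/+ non-air, 10.74 and 10.79 in Snx5-/- non-air, 10.63 and 10.83 in Snx5+/+ air, and 10.49 and 10.51 in Snx5-/- air lungs, so the Snx5-/- air pair lay lowest, with Snx5+/+ non-air replicate 1 only just above it. Its air difference was -0.26 in Snx5-/- (-0.51 to -0.01, adjusted p = 0.488) and 0.10 in Snx5+/+ lungs (-0.15 to 0.35), and the interaction was -0.36 (SE 0.16, -0.71 to -0.01, adjusted p = 0.411, limma). The other 3 probes had interactions of -0.04 to 0.03, so the probes of this gene disagree, and the low pair coincides with the arrays that express *Eif2s3y*.

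*Fkbp5* encodes a co-chaperone that lowers the receptor's affinity for hormone and is itself induced by the receptor, closing a feedback loop. Its values were 11.06 and 11.12 in Snx5+/+ non-air, 10.98 and 10.81 in Snx5-/- non-air, 11.02 and 11.03 in Snx5+/+ air, and 10.95 and 10.94 in Snx5-/- air lungs. The Snx5-/- pair lay below the Snx5+/+ pair in both states. Of all tested probes, 43.2% without air and 47.8% with air did not overlap, in either direction. The size was small. The difference was -0.20 (SE 0.10, -0.42 to 0.02) without air, -0.09 (-0.31 to 0.13) with air and -0.14 (SE 0.07, -0.30 to 0.01) averaged, with adjusted p of 0.422, 0.739 and 0.383 (limma). Air moved it by -0.06 (-0.28 to 0.16) in Snx5+/+ and 0.05 (-0.17 to 0.27) in Snx5-/- lungs.

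*Tsc22d3* encodes the glucocorticoid-induced leucine zipper protein, an anti-inflammatory effector of the hormone, and its 2 probes are annotated to different RefSeq transcripts. The brighter, ILMN_3150811, read 13.44 and 13.68 in Snx5+/+ non-air, 13.40 and 13.37 in Snx5-/- non-air, 13.62 and 13.67 in Snx5+/+ air, and 13.45 and 13.43 in Snx5-/- air lungs. The Snx5-/- pair was the lower in both states. Averaged over both, the difference was -0.19 (SE 0.08, -0.36 to -0.02, adjusted p = 0.261, limma), made up of -0.17 without and -0.21 with air. The dimmer probe, ILMN_2701664, read 8.68 and 9.09, 8.67 and 8.45, 8.76 and 8.62, and 8.75 and 8.73 in the same order of groups. Without air it differed by -0.32 (SE 0.14, -0.63 to -0.02, adjusted p = 0.356), and with air by 0.05 (-0.26 to 0.36). Here 1 array mattered. With Snx5+/+ non-air replicate 1 left out, the lone remaining array of that group was the highest of the 8. *Tsc22d3* was then called lower in Snx5-/- non-air lungs through this probe. Far more of all genes were called as well, so the call is not particular to *Tsc22d3*. The gene is X-linked, and the Snx5-/- air arrays are those with Y-linked expression.

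*Per1* and *Errfi1* are further direct targets. *Per1*, a repressor of the circadian clock that glucocorticoids induce acutely, read 13.05 and 12.86 in Snx5+/+ non-air, 12.83 and 12.83 in Snx5-/- non-air, 12.92 and 12.86 in Snx5+/+ air, and 12.84 and 12.91 in Snx5-/- air lungs at its brighter probe. All 8 arrays lay between 12.83 and 13.05, and the groups with air overlapped. Its genotype difference was -0.12 (-0.35 to 0.11) without and -0.01 (-0.24 to 0.22) with air. The second *Per1* probe gave -0.19 (-0.42 to 0.04) and 0.01 (-0.22 to 0.24). *Errfi1* encodes Mig6, an inhibitor of epidermal growth factor receptor signalling. Its values were 14.10 and 14.28, 14.05 and 13.90, 14.28 and 14.10, and 14.15 and 14.09 for Snx5+/+ non-air, Snx5-/- non-air, Snx5+/+ air and Snx5-/- air lungs. The Snx5-/- non-air pair was the lowest, with a difference of -0.22 (SE 0.11, -0.47 to 0.03, adjusted p = 0.426), and the air groups overlapped at -0.07 (-0.32 to 0.18, adjusted p = 0.817, limma).

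*Sgk1*, a serine/threonine kinase gene whose product raises sodium uptake through the epithelial sodium channel, had the widest span of the 12 probes over the 8 arrays, at 0.69 log2 units. It read 13.05 and 13.22 in Snx5+/+ non-air and 12.81 and 12.92 in Snx5-/- non-air lungs. With air it read 13.49 and 13.50 in Snx5+/+ and 13.36 and 13.06 in Snx5-/- lungs. The Snx5-/- arrays were lower in both states, and the air arrays were higher in both genotypes. It was the only one of the 12 probes whose groups did not overlap in any of the 4 comparisons of 2 groups with both effects keeping 1 direction, which held for 3.14% of all tested probes. The genotype difference was -0.27 (SE 0.12, -0.54 to -0.01, adjusted p = 0.363) without air and -0.28 (-0.55 to -0.02, adjusted p = 0.298) with air. Averaged, it was -0.28 (SE 0.09, -0.47 to -0.09, adjusted p = 0.133, limma, n = 4 per genotype).

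The air difference of *Sgk1* was 0.36 log2 in Snx5+/+ (0.09 to 0.62, adjusted p = 0.196) and 0.35 in Snx5-/- lungs (0.08 to 0.61, adjusted p = 0.359). Averaged, it was 0.35 (SE 0.09, 0.17 to 0.54, adjusted p = 0.0829, limma), or 1.28-fold, the smallest adjusted p of any of the 12 probes in the 7 comparisons. It did not pass the threshold. The interaction was -0.01, with an interval of -0.39 to 0.36 that would also hold a difference between genotypes as large as the air difference itself. Across the alternatives under these air labels, with single arrays left out included, the averaged air difference of *Sgk1* stayed between 0.28 and 0.43, and its averaged genotype difference between -0.35 and -0.20. The probes that followed *Sgk1* most closely over the 8 arrays were those of *Cyp3a13* (Pearson r = 0.974), *Cdkn1a* (0.957) and *Klf4* (0.952), among 12308 candidate probes. These were looked up after the values of *Sgk1* were seen, and the points share the 4 groups.

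**Figure D2:**
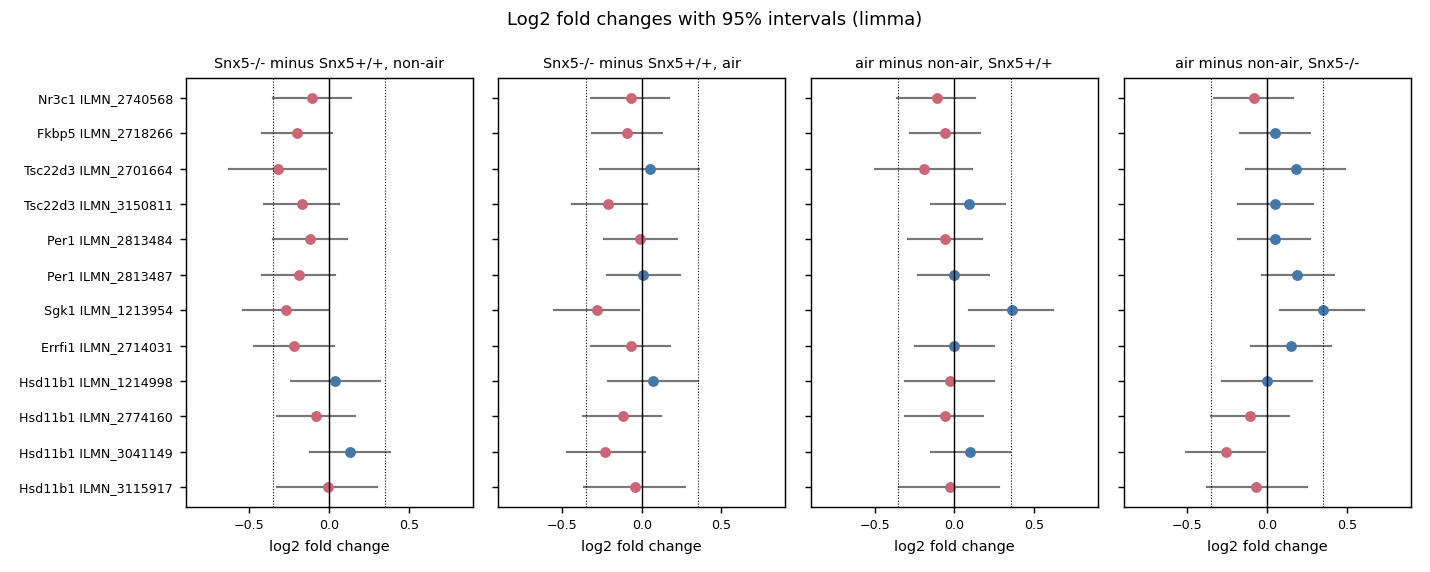
Log2 fold change (x axis) of the 12 probes (rows) with 95% intervals from limma in the 4 comparisons of 2 groups, in red where negative and blue where positive; dotted lines mark the fold cutoff of 0.3531 on either side of 0. Without air 10 of 12 estimates lie below 0, with air 9 of 12, and *Sgk1* is the one probe near 0.35 in both air comparisons.

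Direction was shared by many of the probes. Without air, 10 of the 12 probes had negative genotype differences (range -0.32 to 0.13), against 51.1% of all tested probes. With air it was 9 of 12 (-0.28 to 0.07) against 48.3%, and averaged 11 of 12 (-0.28 to 0.05) against 47.8%. With the brightest probe for each gene, 7 of 7 genes were negative in all 3, where 49.9%, 49.3% and 47.5% of all genes were, with medians of -0.17, -0.07 and -0.14 against 0, 0 and 0.01 over all genes. The averaged comparison is the mean of those without and with air, so its sign is not a separate agreement. Without air the direction was not particular to the set. Of the lung maturation genes described below, 15 of 17 were negative (median -0.31). So were 4 of 4 type I, 6 of 6 type II and 4 of 4 endothelial markers (medians -0.39, -0.27 and -0.29). The 6 neutrophil, 4 cardiac and 3 liver markers tested were all positive. The count of 7 of 7 rests on small values. *Hsd11b1* turned positive without air with median scaling (0.06), without Snx5+/+ non-air replicate 1 (0.01) and without Snx5-/- non-air replicate 1 (0.05). With air, *Nr3c1* (0.07) and *Hsd11b1* (0.20) turned positive without Snx5-/- air replicate 2, *Per1* (0.02) and *Errfi1* (0.02) without Snx5+/+ air replicate 1, and *Per1* (0.02) also without Snx5-/- air replicate 1. On average *Hsd11b1* turned positive without Snx5-/- non-air replicate 1 (0.01) or Snx5-/- air replicate 2 (0.10). *Fkbp5*, *Sgk1* and the brighter *Tsc22d3* probe kept their sign in all 3 under every alternative with these air labels. The probes were read on the same arrays and are not independent observations of genotype. The negative count without air was 8 to 10 over the alternatives run on all arrays and 9 to 10 with 1 array left out. With air it was 9 to 11 and 6 to 11. Without air, 9 of the 12 probes had both Snx5-/- arrays below both Snx5+/+ arrays and 0 above, where 43.2% of all tested probes did not overlap in either direction. With air it was 4 below and 0 above (47.8%).

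Air gave no such shared direction. In Snx5+/+ lungs 8 of 12 probes were negative (range -0.19 to 0.36), with 1 probe wholly higher and 2 wholly lower with air, where 47.7% of all tested probes did not overlap. In Snx5-/- lungs 8 of 12 were positive (-0.26 to 0.35), with 6 higher and 1 lower (41.1%). The 8 negative probes in Snx5+/+ lungs became 3 with median scaling in place of quantile normalization. In Snx5-/- lungs 8 of 12 were negative with that scaling, and 1 of 12 without Snx5-/- air replicate 2.

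A further 36 glucocorticoid targets were listed beside the 8 genes, and 31 of them were tested. Without air, 0 of the 31 were called between genotypes, where 0.703% of all tested genes were. At an unadjusted p under 0.05 it was 5 of 31 against 16.1% (limma). The median log2 fold change was -0.02 against 0 over all genes. With air 3 fell in Snx5-/- lungs and 0 rose, with a median of -0.09, where 2.69% of all tested genes were called. *Dusp1*, a phosphatase gene that restrains MAP kinases, read 12.99 and 13.07 in Snx5+/+ non-air, 13.02 and 13.06 in Snx5-/- non-air, 14.68 and 14.70 in Snx5+/+ air, and 13.56 and 13.44 in Snx5-/- air lungs. The Snx5+/+ air arrays stood apart from all others. With air the genotype difference was -1.19 (SE 0.10, adjusted p = 5.6e-05). *Zfp36*, which encodes the mRNA-destabilising protein tristetraprolin, read 12.58 and 12.65, 12.54 and 12.58, 13.80 and 13.86, and 12.85 and 12.97 in the same order, a difference of -0.92 with air (SE 0.10, adjusted p = 0.000419). *Mt1*, a metallothionein gene, read 14.60 and 13.82, 13.83 and 13.80, 14.34 and 14.46, and 12.90 and 13.47, with a difference of -1.21 (SE 0.23, adjusted p = 0.0168, limma). *Mt1* was not called without Snx5+/+ air replicate 1 (adjusted p = 0.0962), Snx5+/+ air replicate 2 (0.146) or Snx5-/- air replicate 1 (0.139), nor with neqc (0.0852).

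With air in Snx5+/+ lungs, 5 of these 31 targets rose and 0 fell, with a median of 0.07. Of all tested genes 0.912% were called. *Dusp1* rose by 1.66 (SE 0.10, adjusted p = 5.7e-06), *Zfp36* by 1.22 (SE 0.10, adjusted p = 8.58e-05), the growth-arrest gene *Gadd45g* by 0.73 (SE 0.11, adjusted p = 0.0102) and *Lcn2*, which encodes the iron-siderophore carrier lipocalin 2, by 0.72 (SE 0.11, adjusted p = 0.0148, limma). *Rgs2* was the fifth. The count was 2 with neqc and with the arrays of the comparison alone, where *Gadd45g*, *Lcn2* and *Rgs2* were not called. Adjusted p was then 0.0858 and 0.107 for *Lcn2*, and 0.063 and 0.0876 for the *Gadd45g* probe with the larger difference (limma). The count fell without Snx5+/+ non-air replicate 2 or either Snx5+/+ air replicate, each of which also ended the calls of these genes. Without Snx5+/+ non-air replicate 1 the count rose, as did the calls over all genes. In Snx5-/- lungs 0 of 31 were called for air, where 0.764% of all tested genes were, with a median of 0.06. At an unadjusted p under 0.05 it was 10 of 31 against 11.8% (limma). The difference between the genotypes' air responses was called for *Dusp1* and *Zfp36* only among the 31, where 0.519% of all tested genes were called. *Sgk1*, whose air difference was alike in size in both genotypes, is set beside these targets in the plot of air differences. *Dusp1*, *Zfp36* and *Gadd45g* also answer to stress and growth signals apart from glucocorticoids.

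**Figure D3:**
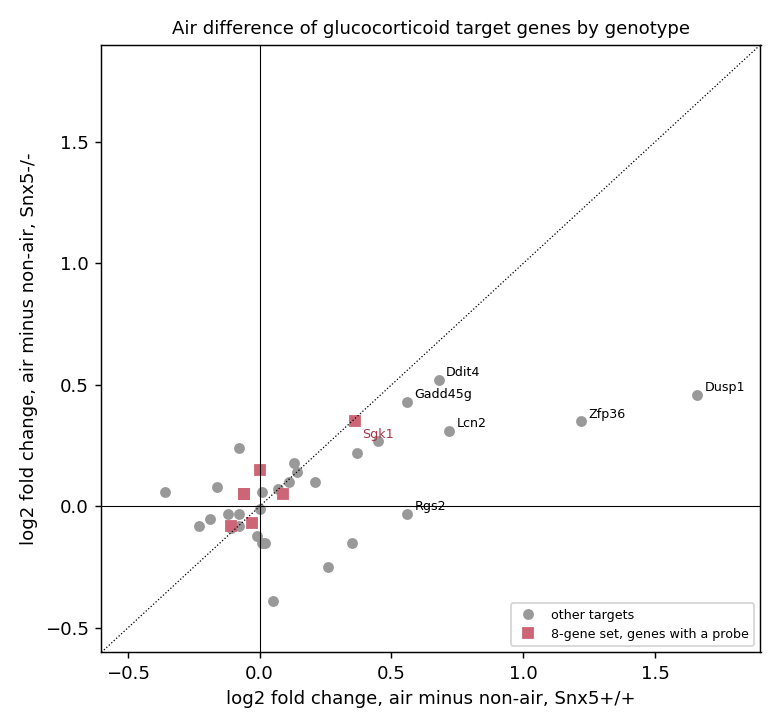
Log2 fold change of air against non-air in Snx5+/+ lungs (x axis) and in Snx5-/- lungs (y axis) for the 31 other targets tested (grey circles) and the 7 genes of the set with a probe (red squares), 1 point per gene at its brightest probe; the dotted line marks equal differences. *Dusp1* and *Zfp36* lie far below the line at 1.66 and 1.22 on the x axis, and *Sgk1* lies close to it.

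**Figure D4:**
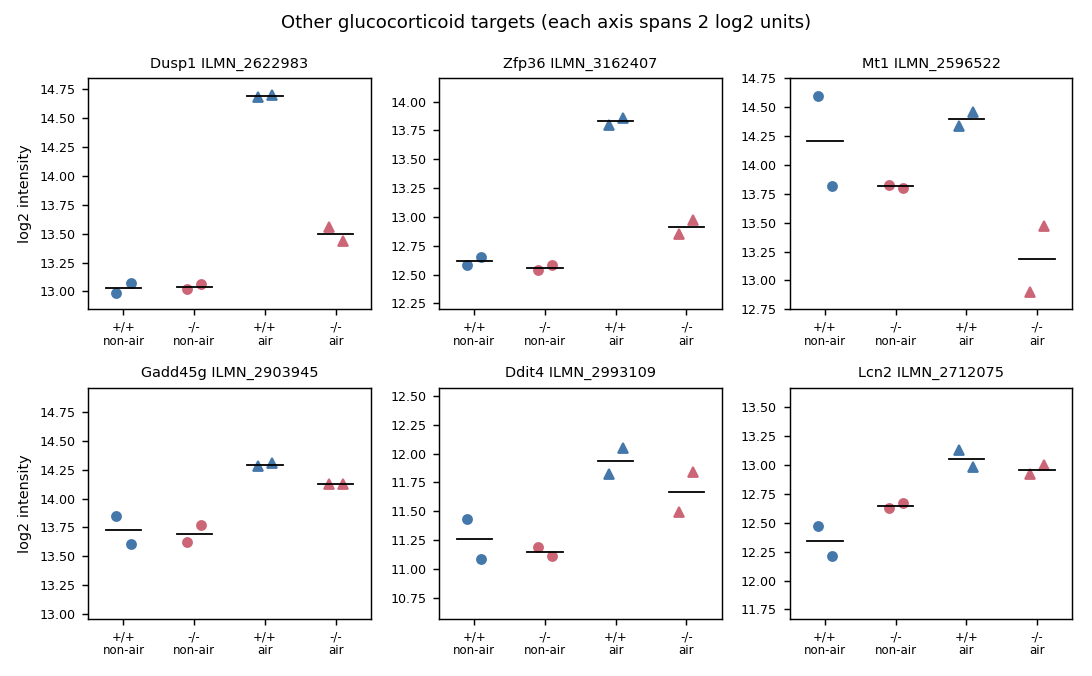
Log2 intensity (y axis) of 6 other glucocorticoid targets called in at least 1 comparison, on each of the 8 arrays by genotype and air label, with circles for non-air, triangles for air, blue for Snx5+/+ and red for Snx5-/- lungs; the bar is the mean of 2 arrays and each axis spans 2 log2 units. *Dusp1* and *Zfp36* are highest on the Snx5+/+ air arrays, and *Mt1* is lowest on the Snx5-/- air arrays.

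Calls were absent among the parts of the pathway that act before transcription, which does not show that they stayed level. Of 19 listed genes for chaperones, co-chaperones, nuclear import and coregulators of the receptor, 14 were tested and 0 were called in all 7 comparisons. At an unadjusted p under 0.05 (limma), the most were found for air averaged over genotypes, with 2 of the 14 higher and 2 lower, where 16.2% of all genes passed. In the genotype comparisons it was 1 lower and 0 higher in each. Of 14 listed genes that make, carry or inactivate steroids, only 3 or 4 were tested, depending on the comparison, and 0 were called. *Hsd11b2*, whose product inactivates the hormone, was above background on 0 arrays. Of 20 listed genes of late lung maturation, many of them known to respond to glucocorticoids, 17 were tested. Averaged over both states, 3 were lower in Snx5-/- lungs and 0 higher, namely the water channel gene *Aqp5* (-0.54 and -0.52 at its probes, adjusted p = 0.00213 and 0.00252), the sodium channel subunit gene *Scnn1b* (-0.38, SE 0.07, adjusted p = 0.0149) and the elastin gene *Eln* (-0.38, SE 0.08, adjusted p = 0.0231, limma). Of all tested genes 2.7% were called in that comparison. The list's median was -0.13 against 0.01 over all genes on average, -0.31 against 0 without air and -0.12 against 0 with air. Without air 15 of the 17 were negative. There 10 were lower and 2 higher at an unadjusted p under 0.05 (limma), against 16.1% of all genes. *Aqp5* alone was called without air, and not with neqc (adjusted p = 0.0526 and 0.0804 at its probes). These genes were read on the same arrays and are not independent observations. In the averaged comparison *Scnn1b* and *Eln* were not called with neqc (adjusted p = 0.0548 and 0.0876). Without single arrays the call of *Scnn1b* was lost for 6 of 8 arrays and that of *Eln* for 5 of 8. With Snx5+/+ non-air replicate 2 left out *Scnn1b* fell short only of the fold cutoff (-0.34, adjusted p = 0.0357), and the other lost calls had adjusted p of 0.0533 to 0.132.

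Markers of other cells moved with the same groups. The mean log2 intensity of 6 neutrophil markers was 9.24 to 9.53 in Snx5+/+ non-air and 9.93 in Snx5-/- non-air lungs. With air it was 10.07 to 10.17 in Snx5+/+ and 10.59 to 10.76 in Snx5-/- lungs. Averaged over genotypes, 6 of 6 were called higher with air, where 1.4% of all tested genes were called. Of the 6 type I cell markers, 5 had a probe and 4 were detected, at 14.46 to 14.59 in Snx5+/+ and 14.12 to 14.16 in Snx5-/- non-air lungs, and at 14.52 to 14.55 and 14.13 to 14.24 with air. *Hopx*, a defining marker of these cells, was not above background. Cardiac markers (4 of 6 detected) stood at 9.57 to 9.95 and 9.70 to 9.75 in Snx5+/+ and at 10.32 to 10.38 and 10.41 to 10.52 in Snx5-/- lungs without and with air. The 3 erythroid markers with a probe stood at 13.92 and 14.04 to 14.10 in Snx5+/+ and at 13.48 to 13.58 and 13.16 to 13.20 in Snx5-/- lungs, without and with air. With air *Slc4a1* and *Alas2* were called lower in Snx5-/- lungs (median of the list -1.08), where 2.69% of all tested genes were called. Of the 6 liver markers 2 were detected. The mean of these 2 was 8.37 to 8.49 in Snx5-/- non-air lungs and 7.41 to 7.89 in the other groups. All of these values lay near or below the log2 intensity cutoff of 8. Without air 3 of 3 tested (*Fga*, *Ahsg* and *Apoa1*) were called higher in Snx5-/- lungs (median 1), where 0.703% of all tested genes were called. *Apoa1*, 1 of the 3 called, was not above background on any array, nor was *Alb*. The 6 fibroblast markers, all detected, stood at 13.31 to 13.42 in Snx5+/+ and 13.02 to 13.23 in Snx5-/- lungs. Of these, 3 of 6 were called lower on average (*Col1a1*, *Col1a2* and *Eln*), where 2.7% of all tested genes were called. The list was mixed, with 4 negative and 2 positive both on average and with air. With air the positive ones were *Tcf21* (0.43, adjusted p = 0.0781, limma) and *Pdgfra* (0.06). The endothelial markers, 4 of 6 detected and *Kdr* not, stood at 12.05 to 12.31 in Snx5+/+ and 11.90 to 11.99 in Snx5-/- lungs, with 0 called. Macrophage markers (3 of 6 with a probe) stood at 9.73 to 10.05 without and 10.16 to 10.33 with air. Surfactant genes and other type II markers were all detected, at 14.26 to 14.49 in Snx5+/+ non-air lungs and at 14.03 to 14.19 in the other 3 groups. Of these 6, 0 were called, and 6 of 6 were negative both between genotypes without air (median -0.27) and for air in Snx5+/+ lungs (median -0.32). The part of these markers in the values of *Sgk1*, *Fkbp5* and the other genes was not tested. Nor was it for the other targets, such as *Lcn2*, which rose with air as the neutrophil markers did.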

How the data were processed

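The authors deposited log2 intensities, described in the methods as quantile normalized, which are the values analysed. The authors also deposited linear probe intensities with a detection p-value for each, made with software that the sources used here do not name, and these served the label check and alternatives. Per-sample columns left unused numbered 0. Samples of non-air Snx5-/- lungs are described as wild type in 1 field and were mapped by title and genotype.

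One limma 3.58.1 fit (R 4.3.3; lmFit and eBayes, 8 arrays, 4 groups, no block) gave 7 comparisons. Probes were tested where the mean of any group compared exceeded a log2 intensity of 8, p-values were adjusted by Benjamini-Hochberg over all of them, and a gene was called where any probe had an adjusted p below 0.05 with a log2 fold change over 0.3531 in size. A probe was detected at a detection p-value under 0.01. The number of arrays limits precision. Fits were tested on simulated data.

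The 8 genes and all companion lists were chosen with earlier results of these data known. All probes of the 8 genes are named, and of each list up to 4 called genes per comparison with the largest change. *Rgs2*, *Ddit4* and *Hsd11b2* were named outside this rule after their values were seen, as were the genes nearest to *Sgk1* and the individual cell type markers. Symbols come from the platform annotation, positions and promoter windows from RefSeq (GRCm38.p6).

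Alternatives tried were neqc (offset 16), the intensity table with its own labels, median scaling, 64 added before log2, 2 other filters, the arrays of a comparison alone, an intensity trend, array weights, a replicate block, no fold cutoff, the methods' t-test and each array left out.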

Additional observations from a re-analysis of the deposited data

Results flagged for a closer look

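The targets *Dusp1* and *Zfp36*, outside the 8 genes, differed between genotypes in their response to air, by the interaction term itself. The air difference of *Dusp1* was smaller by 1.21 log2 in Snx5-/- than in Snx5+/+ lungs (interaction -1.21, adjusted p = 0.00168, limma), and the sign turns to 1.21 under the labels of the intensity table. That of *Zfp36* differed by -0.87 (adjusted p = 0.017, limma), or 0.87 under those labels. The interaction of *Zfp36* was not called with neqc (adjusted p = 0.0922), nor without Snx5-/- non-air replicate 1 (0.0976) or 2 (0.131), Snx5+/+ air replicate 1 (0.0827) or 2 (0.141), or Snx5-/- air replicate 1 (0.101). Both rest on the Snx5-/- air arrays, from which sex cannot be told apart. No group has enough arrays for a test of single outlying arrays.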

How the results depend on the processing

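The count of called genes among the 8 was recomputed 138 times over 21 settings and stayed at 0 in 136. It was 1 between genotypes without air when Snx5+/+ non-air replicate 1 was left out (*Tsc22d3*, range 0 to 1 over the arrays left out), and 1 for air in Snx5+/+ lungs by the methods' t-test at an unadjusted p (*Sgk1*), which gave 0 after Benjamini-Hochberg. That t-test was not run for the averaged comparisons and the interaction, nor was the fit on the arrays of a comparison alone. A group with 1 array left is assumed to vary like the others. Between genotypes without air, calls over all genes also rose steeply without Snx5+/+ non-air replicate 1.

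Replicate numbers gave no clear pairing of the samples, since their deviations correlated at -0.23 to 0.28 between groups. Whether samples shared a litter or a batch was not tested. With the replicate number as a block the count among the 8 genes was 0 in every comparison, and over all genes it went from 28 higher and 38 lower to 19 and 30 between genotypes without air. The block ended the call of *Rgs2* for air in Snx5+/+ lungs (adjusted p = 0.064, limma). It was 1 of 5 settings on all arrays that did so (adjusted p of 0.0548 to 0.182, limma). The call was also lost for 7 of the 8 arrays left out singly, and the difference was 0.46 to 0.66 over the alternatives under the log2 labels.

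Under the labels of the intensity table these differences changed sign. For air in Snx5+/+ lungs the values became 0.12 for *Nr3c1*, -0.36 for *Sgk1*, -1.66 for *Dusp1*, -0.55 for *Rgs2*, -0.72 for *Lcn2*, -0.73 and -0.56 for the *Gadd45g* probes and -1.22 for *Zfp36*. In Snx5-/- lungs they became -0.35 for *Sgk1* and -0.15 for *Errfi1*. Averaged, they became 0.10 for *Nr3c1*, -0.35 for *Sgk1*, -1.06 for *Dusp1*, -0.51 for *Lcn2*, -0.63 and -0.50 for *Gadd45g*, -0.60 for *Ddit4* and -0.78 for *Zfp36*. The genotype difference of *Dusp1* in lungs labelled air became 0.01, and 4 of the 31 other targets were then called without air and 0 with air. The interactions became 1.21 for *Dusp1* and 0.87 for *Zfp36*.

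Of the 31 other targets, the alternatives under the log2 labels called 2 to 4 between genotypes with air, 2 to 8 for air in Snx5+/+ lungs, 3 to 6 for air on average, 0 to 2 for air in Snx5-/- lungs and 1 to 3 for the interaction, against 3, 5, 5, 0 and 2. Of the 17 maturation genes they called 1 to 5 in the averaged genotype comparison, against 3. Single-array results for *Mt1*, *Scnn1b* and *Eln* stand with their values. The limits are 2 arrays a group, the air labels, the sex of the Snx5-/- air group and, for *Nr3c1* and the dimmer *Tsc22d3* probe, signal near background.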
